A study of Mus musculus with 2 samples.

Results

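Cd3e-positive cells were chosen by their measured Cd3e count, as cells with at least 1 UMI of Cd3e. They were taken from innate lymphoid cells (ILCs) of mouse skin after cells with more than 10% mitochondrial UMIs had been left out. UMIs are molecular tags by which amplified copies of an RNA molecule are counted once. There were 117 Cd3e-positive cells among 4949 kept cells, of 5246 cells in the deposited table. They comprised 73 of the 1441 kept cells of cell set 1, which is 5.07% (3.99 to 6.33%), and 44 of the 3508 of cell set 2, which is 1.25% (0.913 to 1.68%). The other 1368 and 3464 cells had no Cd3e UMI and are called Cd3e = 0 cells. Because Cd3e chose the cells, its own level is a description, and the other genes of the T cell receptor complex are what the comparison is about.

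C57/BL6 mice were sampled on postnatal day 14 and on postnatal day 1, each day as a single library. According to the protocols in the labels, Collagenase A released the cells, those with CD45 and Thy1.2 and without lineage markers were enriched by flow cytometry, and libraries came from the 10x Genomics 5' kit. The labels do not say which antibodies defined the lineage, which sex was used or how many animals were pooled. Cell names carry a suffix that divides them into cell sets 1 and 2, the suffix was matched to neither day, and the days were not compared. Each set is 1 library at most, so there was no replicate and no test, and all intervals are 95% intervals of counting error. Such an interval treats UMIs as independent, although UMIs of 1 cell are not.

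The T cell receptor is a pair of antigen-binding chains, alpha with beta or gamma with delta, that reaches the cell surface together with the CD3 subunits gamma, delta and epsilon and the zeta chain. Cd3e encodes the epsilon subunit, without which the complex is not assembled. T cells with a gamma delta receptor settle in mouse skin around birth, as dendritic epidermal T cells in the epidermis and as IL-17-producing cells in the dermis. ILCs develop from related progenitors and can carry transcripts of CD3 subunits and of unrearranged receptor loci, and UMI counts of a constant gene do not show whether its locus is rearranged.

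Cd3e lies beside Cd3d and Cd3g on mouse chromosome 9 (GRCm38, GENCODE M21). Cd3e spans chr9:44998740-45009627 on the minus strand, Cd3d spans chr9:44981786-44987339 on the plus strand and Cd3g spans chr9:44969572-44980431 on the minus strand. The Cd3g and Cd3d genes are 1354 bases apart, and Cd3d and Cd3e are 11400 bases apart. Because transcripts of these 3 neighbours were compared, their promoter windows, from 250 bases before to 50 bases after the start of the RefSeq gene (GRCm38.p6), are shown 5′ to 3′ on the strand of the gene. Capitals mark the E-box motif CANNTG, searched on both strands, which read the same letters.
Cd3e, chr9:45009562-45009861, minus strand: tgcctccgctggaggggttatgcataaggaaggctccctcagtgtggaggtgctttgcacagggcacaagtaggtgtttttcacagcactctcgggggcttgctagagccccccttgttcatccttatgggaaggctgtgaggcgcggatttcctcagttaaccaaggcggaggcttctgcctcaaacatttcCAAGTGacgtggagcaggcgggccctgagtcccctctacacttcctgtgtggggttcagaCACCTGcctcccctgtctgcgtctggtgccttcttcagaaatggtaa
Cd3d, chr9:44981536-44981835, plus strand: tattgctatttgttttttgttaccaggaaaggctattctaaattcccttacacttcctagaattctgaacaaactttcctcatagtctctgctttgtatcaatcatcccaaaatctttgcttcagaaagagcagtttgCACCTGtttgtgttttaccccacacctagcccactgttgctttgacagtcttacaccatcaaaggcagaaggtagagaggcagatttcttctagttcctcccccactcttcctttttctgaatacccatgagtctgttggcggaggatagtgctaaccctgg
Cd3g, chr9:44980382-44980681, minus strand: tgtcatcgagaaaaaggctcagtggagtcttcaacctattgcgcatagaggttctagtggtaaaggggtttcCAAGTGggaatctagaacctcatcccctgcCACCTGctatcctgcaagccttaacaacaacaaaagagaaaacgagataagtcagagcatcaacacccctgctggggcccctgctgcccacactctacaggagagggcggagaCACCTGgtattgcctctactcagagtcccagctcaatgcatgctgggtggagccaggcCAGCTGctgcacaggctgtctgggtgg
The motif occurred 2 times in the Cd3e window, 1 time in the Cd3d window and 4 times in the Cd3g window. It was present in 72.3% of the 32851 promoter windows of the same length, so its presence is common. TATAAA was found in 0 of the 3 windows and in 13.6% of all windows.

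Most Cd3e-positive cells held very little Cd3e. In set 1, 42 cells had 1 UMI, 18 had 2, 10 had 3, 2 had 4 and 1 had 6, which is 122 UMIs in all. In set 2, 20 cells had 1 UMI, 14 had 2, 5 had 3, 3 had 4, 1 had 12 and 1 had 20, which is 107 UMIs. The last 2 of these cells held 29.9% of the Cd3e UMIs of set 2. The cells just inside the rule are thus the 42 and 20 cells with 1 UMI, and just outside it are the cells with 0. Mitochondrial UMIs reached at most 8.84% in a Cd3e-positive cell of set 1, and 1 further cell of that set with 2 Cd3e UMIs was left out at 11.5%.

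Cd3e-positive cells were deeper than the others by median in set 1 and shallower in set 2, with overlapping intervals in both. Their median was 11075 UMIs (9605 to 12721) in set 1, against 10666 in Cd3e = 0 cells (10368 to 11004). In set 2 it was 4092 UMIs (3811 to 4814), against 4862 in Cd3e = 0 cells (4777 to 4932). The median number of genes was 2688 against 2666 in set 1 and 1431 against 1549 in set 2. With the cells of each set in 4 depth groups of near-equal number, shallowest first, the share with Cd3e was 3.33%, 6.11%, 5.83% and 4.99% in set 1, and 1.6%, 1.82%, 0.798% and 0.798% in set 2. The sum of UMIs was 851530 over Cd3e-positive cells against 15663102 over Cd3e = 0 cells in set 1, and 211704 against 17814444 in set 2, so precision is limited by the Cd3e-positive cells. Scrublet called 7 doublets in set 1 and 0 in set 2, none of them Cd3e-positive, and so low a share leaves the doublets of these sets largely unmarked. Of the 16-base barcodes, 4 occurred in both sets, and 0 of those belonged to a Cd3e-positive cell.

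The other CD3 subunits were higher in Cd3e-positive cells of both sets. Levels are given as CPM, the UMIs of a gene summed over the cells per 1000000 UMIs of those cells. Cd3d, the delta subunit, stood at 23.5 CPM in Cd3e-positive cells against 5.75 CPM in Cd3e = 0 cells of set 1, a ratio of 4.09 (2.38 to 6.69). In set 2 it stood at 255 CPM against 6.96 CPM, a ratio of 36.6 (26.1 to 50.8). These levels came from few cells. Cd3d had a UMI in 8 of 73 Cd3e-positive cells against 5.34% of Cd3e = 0 cells in set 1, and in 9 of 44 (20.5%) against 3.35% in set 2. In set 1, 1 cell held 10 of the 20 Cd3d UMIs of the Cd3e-positive cells, and without it the ratio was 2.08 (0.966 to 4.01).

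Cd3g, the gamma subunit, had smaller ratios and was found in most cells of both groups. It stood at 693 CPM in Cd3e-positive cells against 444 CPM in Cd3e = 0 cells of set 1, a ratio of 1.56 (1.43 to 1.70). In set 2 the values were 1318 and 524 CPM, a ratio of 2.52 (2.22 to 2.83). A Cd3g UMI was found in 98.6% of Cd3e-positive cells against 82.2% of Cd3e = 0 cells in set 1, and in 95.5% against 74.5% in set 2. Cd247, the zeta chain, stood at 28.2 against 11.8 CPM in set 1 (ratio 2.39, 1.49 to 3.66), and at 56.7 against 31.2 CPM in set 2, where the interval of 0.933 to 3.20 included 1. In 50 of 73 Cd3e-positive cells of set 1 and 30 of 44 of set 2, Cd3g was the only one of Cd3g, Cd3d and Cd247 with a UMI. All 3 together were found in 1 and 5 cells.

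**Figure D1:**
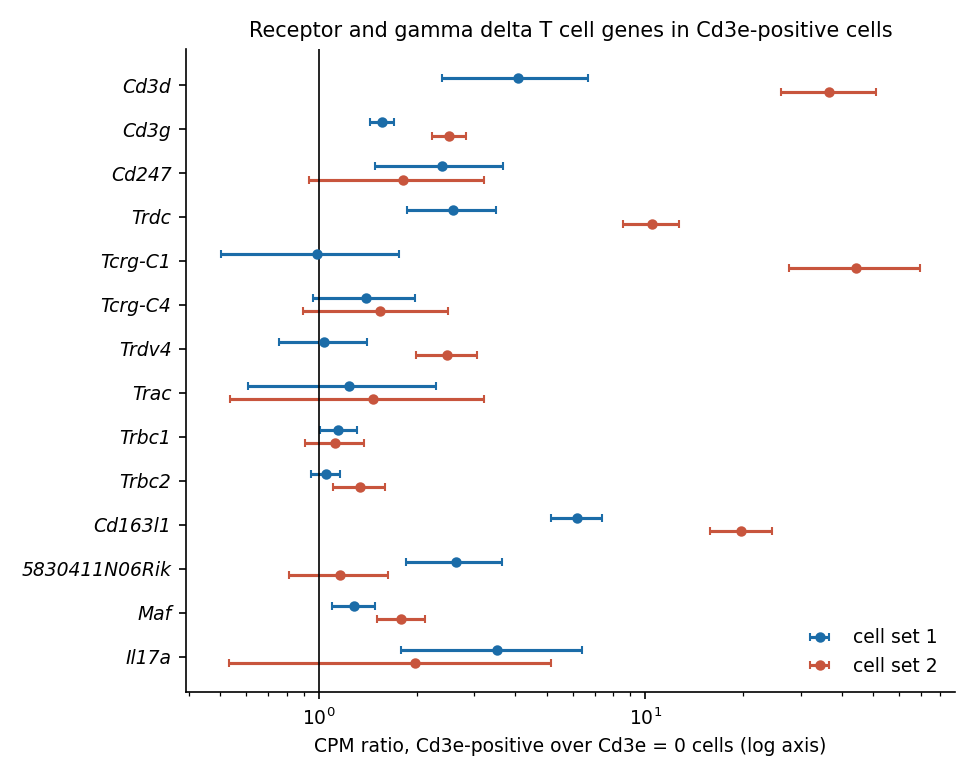
CPM ratio of Cd3e-positive over Cd3e = 0 cells (log axis) for 14 receptor complex and gamma delta T cell genes in cell sets 1 and 2, with the exact 95% interval of counting error. Cd3d, Cd3g, Trdc and Cd163l1 lie above 1 in both sets, and the intervals of Trac include 1 in both. Tcrg-C1 is at 44.2 in set 2 and 0.985 in set 1. In set 2, most of its UMIs in Cd3e-positive cells lay in the cells with 20 and 12 Cd3e UMIs.

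Among the receptor chains, the ratio of the delta chain lay above 1 in both sets and the interval of the alpha chain included 1. Trdc, the constant region of the delta chain (chr14:54142851-54148868), stood at 56.4 CPM in Cd3e-positive cells against 21.8 CPM in Cd3e = 0 cells of set 1, a ratio of 2.58 (1.87 to 3.50). In set 2 it stood at 538 against 51.4 CPM, with a ratio between 8.54 and 12.7. Trac, the constant region of the alpha chain (chr14:54220521-54224206), stood at 12.9 against 10.4 CPM in set 1 (ratio 1.24, 0.608 to 2.28), and at 28.3 against 19.4 CPM in set 2, a ratio of 1.46 (0.533 to 3.22). Trac had a UMI in 9 of 73 Cd3e-positive cells against 143 of 1368 Cd3e = 0 cells in set 1 and in 11.4% against 8.95% in set 2. The name T cell was not given to these cells. Of their 3 marker genes, Trac was not higher beyond counting error and Cd3d was found in few of them. Trac belongs to the alpha chain, so its level does not bear on gamma delta receptors.

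The gamma chain constant genes gave unlike values in the sets, a difference that was not tested. Tcrg-C1 stood at 14.1 CPM in Cd3e-positive cells against 14.3 CPM in Cd3e = 0 cells of set 1, a ratio of 0.985 (0.502 to 1.76), and at 146 against 3.31 CPM in set 2, a ratio of 44.2 (27.7 to 69.4). In set 2, 8 of 44 Cd3e-positive cells carried it (18.2%), against 1.41% of Cd3e = 0 cells. Most of its UMIs in these 8 cells lay in the cells with 20 and 12 Cd3e UMIs, which held 11 and 8. Tcrg-C4 stood at 41.1 against 29.4 CPM in set 1 and at 80.3 against 52.0 CPM in set 2, with intervals of the ratio that included 1 (0.963 to 1.98 and 0.896 to 2.49). Reads of the Tcrg constant genes, and of Trbc1 and Trbc2, can be split between near-identical copies, so the level of each single copy is uncertain. The beta chain constant genes were abundant in both groups. Trbc1 was at 291 against 253 CPM in set 1 and 449 against 400 CPM in set 2, and Trbc2 at 457 against 435 CPM and 576 against 431 CPM, with ratios between 1.05 and 1.34.

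Over the 10 CD3 and receptor constant genes in the table other than Cd3e, the summed level was 1621 CPM in Cd3e-positive cells against 1226 CPM in Cd3e = 0 cells of set 1, a ratio of 1.32 (1.25 to 1.40), and 3448 against 1520 CPM in set 2, a ratio of 2.27 (2.11 to 2.44). Genes with at least 100 UMIs in a set were counted as apart when the ratio of CPM + 10 was at least 2-fold. By that measure 2 of 9 such receptor genes were higher in set 1 (Cd3d and Trdc), against 0.161% of all 8084 genes counted, and 3 of 8 in set 2 (Cd3d, Trdc and Cd3g), against 1.5% of all 8061 genes. None was 2-fold lower, against 0.322% and 4.76% of all genes. Tcrg-C1 had too few UMIs in set 2 for this count. The median log2 ratio of the receptor genes with at least 20 UMIs was 0.38 in set 1 and 0.69 in set 2, beside -0.01 and -0.06 over all genes counted.

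The table used here holds 10 symbols of receptor variable genes. Of these, Trdv4, a delta chain gene used by dendritic epidermal T cells, was the one with more than 200 UMIs. It stood at 54.0 CPM in Cd3e-positive cells against 51.9 CPM in Cd3e = 0 cells of set 1, a ratio of 1.04 (0.756 to 1.40), and at 430 against 174 CPM in set 2, a ratio of 2.48 (1.99 to 3.05). Tcrg-V1, a gamma chain variable gene, stood at 4.70 against 1.21 CPM in set 1 (0.958 to 11.7) and 37.8 against 7.35 CPM in set 2 (2.17 to 10.4), from 4 and 8 UMIs. Trgv2 had 4 UMIs in 1 Cd3e-positive cell of set 1 and 3 in 1 of set 2, with ratio intervals above 1 (2.92 to 68.4 and 4.88 to 112). Tcrg-V5 and Tcrg-V6 had at most 1 UMI in the Cd3e-positive cells of either set.

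Cd163l1, a scavenger receptor gene known from IL-17-producing gamma delta T cells (chr7:140218267-140231145), stood at 201 CPM in Cd3e-positive cells against 32.5 CPM in Cd3e = 0 cells of set 1, a ratio of 6.18 (5.17 to 7.36). In set 2 it stood at 491 against 24.9 CPM, a ratio of 19.7 (15.8 to 24.5). It was carried by 23 of 73 Cd3e-positive cells (31.5%) against 151 of 1368 Cd3e = 0 cells in set 1 and by 19 of 44 (43.2%) against 4.47% in set 2, and no single Cd3e-positive cell held more than 14.4% of its UMIs. 5830411N06Rik, a scavenger receptor gene next to it on chromosome 7, was higher in set 1, at 48.1 against 18.3 CPM (ratio 1.85 to 3.65). In set 2 it stood at 165 against 142 CPM, with an interval of 0.810 to 1.63.

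Cd163l1 and Trdc often occurred in the same cell. Both had a UMI in 15 of 73 Cd3e-positive cells (20.5%, 12 to 31.6%) against 27 of 1368 Cd3e = 0 cells (1.97%, 1.30 to 2.86%) in set 1. In set 2 both were found in 13 of 44 Cd3e-positive cells (29.5%, 16.8 to 45.2%) against 40 of 3464 Cd3e = 0 cells (1.15%, 0.826 to 1.57%). Read the other way, 35.7% of the 42 cells of set 1 with both genes and 24.5% of the 53 of set 2 had Cd3e. At the other end, 24 Cd3e-positive cells of set 1 (32.9%) and 14 of set 2 (31.8%) had no UMI of Cd3d, Trdc, Trac, Cd247 or Cd163l1, against 59.1% and 61.7% of the Cd3e = 0 cells.

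Maf, a transcription factor of IL-17-producing gamma delta T cells that ILCs also express, stood at 222 against 173 CPM in set 1 and at 666 against 372 CPM in set 2, with ratios of 1.28 (1.10 to 1.48) and 1.79 (1.5 to 2.12). Il17a itself was counted in 2 Cd3e-positive cells of set 1 and 1 of set 2, at 15.3 against 4.34 CPM, and 18.9 against 9.60 CPM. Sox13 and Blk, further genes of this lineage, had at most 4 UMIs in the Cd3e-positive cells of a set. Across the whole list of 13 gamma delta T cell genes in the table, 5 of the 9 with at least 20 UMIs had a ratio whose interval lay above 1 in each set and 0 lay below it. Over all genes with at least 20 UMIs, 4.77% of 10889 lay above 1 and 4.56% below it in set 1, and 4.63% of 10881 above and 3.25% below in set 2. This list shares Trdc and the Tcrg constant genes with the receptor list.

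Signalling genes of T cells differed less. Their summed ratio was 1.10 (1.03 to 1.16) in set 1 and 1.21 (1.10 to 1.33) in set 2. Of 15 signalling genes with at least 20 UMIs in set 1, 1 had an interval above 1 and 1 below it, and of 17 in set 2, 5 lay above and 0 below, against the shares over all genes given for the gamma delta list. At least 2-fold higher were 0 of 14 with at least 100 UMIs in set 1 and 2 of 15 in set 2, and 0 were lower in either, against 0.161% and 1.5% of all genes higher. Grap2, an adaptor downstream of the receptor, was higher in both, at 154 against 120 CPM in set 1 (ratio 1.07 to 1.53) and 288 against 181 CPM in set 2 (1.22 to 2.05). Lck and Zap70, the kinases that start receptor signalling, stood at 18.8 against 14.2 CPM and 83.4 against 65.9 CPM in set 1, and at 66.1 against 87.3 CPM and 99.2 against 97.7 CPM in set 2, all with intervals that included 1. Lat, the membrane adaptor, was at 92.8 against 90.7 CPM in set 1 and 246 against 151 CPM in set 2 (ratio 1.21 to 2.14). Trat1, which encodes a receptor-associated adaptor, lay on opposite sides of Cd3e = 0 cells, at 5.87 against 18.1 CPM in set 1 (0.104 to 0.765) and 61.4 against 5.78 CPM in set 2 (5.47 to 19.0). In set 2, 4 cells carried its 13 UMIs.

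The co-receptors of alpha beta T cells were at or near 0. Cd4 and Cd8b1 had no UMI in the Cd3e-positive cells of either set. In Cd3e = 0 cells, Cd8b1 stood at only 0.0638 and 0.281 CPM, and Cd4 at 2.25 CPM in set 2. At such levels a 0 does not set the groups apart. The exact interval for 0 cells reaches 4.93% in set 1 and 8.04% in set 2, which limits cells with a UMI and not cells that express the gene. Cd4 was present in 5.41% of Cd3e = 0 cells of set 1 at 12.4 CPM, and the interval of its ratio there was 0 to 0.351. Cd5, found on most T cells, was at 0 in both, but stood at only 0.0638 and 1.12 CPM in Cd3e = 0 cells. The co-receptor and costimulation list as a whole had a summed ratio of 1.05 (0.986 to 1.12) in set 1 and 1.45 (1.33 to 1.58) in set 2. Cd2, an adhesion receptor of T and NK cells, was higher in both sets, at 32.9 against 12.3 CPM in set 1 (1.74 to 4.0) and 37.8 against 13.1 CPM in set 2 (1.23 to 5.76). Cd28, the costimulatory receptor, stood at 35.2 against 67.0 CPM in set 1 (0.353 to 0.755) and 61.4 against 69.4 CPM in set 2 (0.470 to 1.52). Of the transcription factors, Bcl11b, needed for T cell and ILC2 identity, was higher in both sets, at 184 against 112 CPM (1.38 to 1.93) and 345 against 183 CPM (1.47 to 2.38), while Tcf7 stood at 59.9 against 70.2 CPM and 123 against 158 CPM, with intervals that included 1.

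Trdc and Cd3g were higher by value with each step of Cd3e UMIs in both sets, which did not hold in both for Cd163l1, Trbc1 and Tcrg-C1. The split of Cd3e-positive cells by 1, 2 and at least 3 UMIs was made after the values had been seen. In cells with 0, 1, 2 and at least 3 Cd3e UMIs, Trdc stood at 21.8, 38.3, 55.0 and 115 CPM in set 1 and at 51.4, 202, 267 and 1665 CPM in set 2. Cd3g stood at 444, 650, 700 and 821 CPM in set 1 and at 524, 861, 1155 and 2596 CPM in set 2. Cd163l1 had no such order: set 1 gave 32.5, 125, 100.1 and 571 CPM, while set 2 gave 24.9, 577, 267 and 562 CPM. For Trbc1, set 1 gave 253, 270.3, 245 and 417 CPM, while set 2 gave 400.3, 348, 746 and 324 CPM. Tcrg-C1 was ordered in set 2, with 3.31, 27.5, 53.3 and 541 CPM, but not in set 1, with 14.3, 14.1, 0 and 32.1 CPM. Cd3d stood at 5.75, 10.1, 10.0 and 83.3 CPM in set 1 and at 6.96, 64.1, 53.3 and 952 CPM in set 2, so most of it was in the cells with at least 3 UMIs. In cells with exactly 1 Cd3e UMI, the Cd3d ratio was 1.76 in set 1, with an interval of 0.557 to 4.25 that included 1, and 9.21 in set 2. Trac stood at 10.4, 10.1, 20.02 and 12.8 CPM in set 1 and at 19.4, 36.6, 17.8 and 21.6 CPM in set 2 and followed no order.

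**Figure D2:**
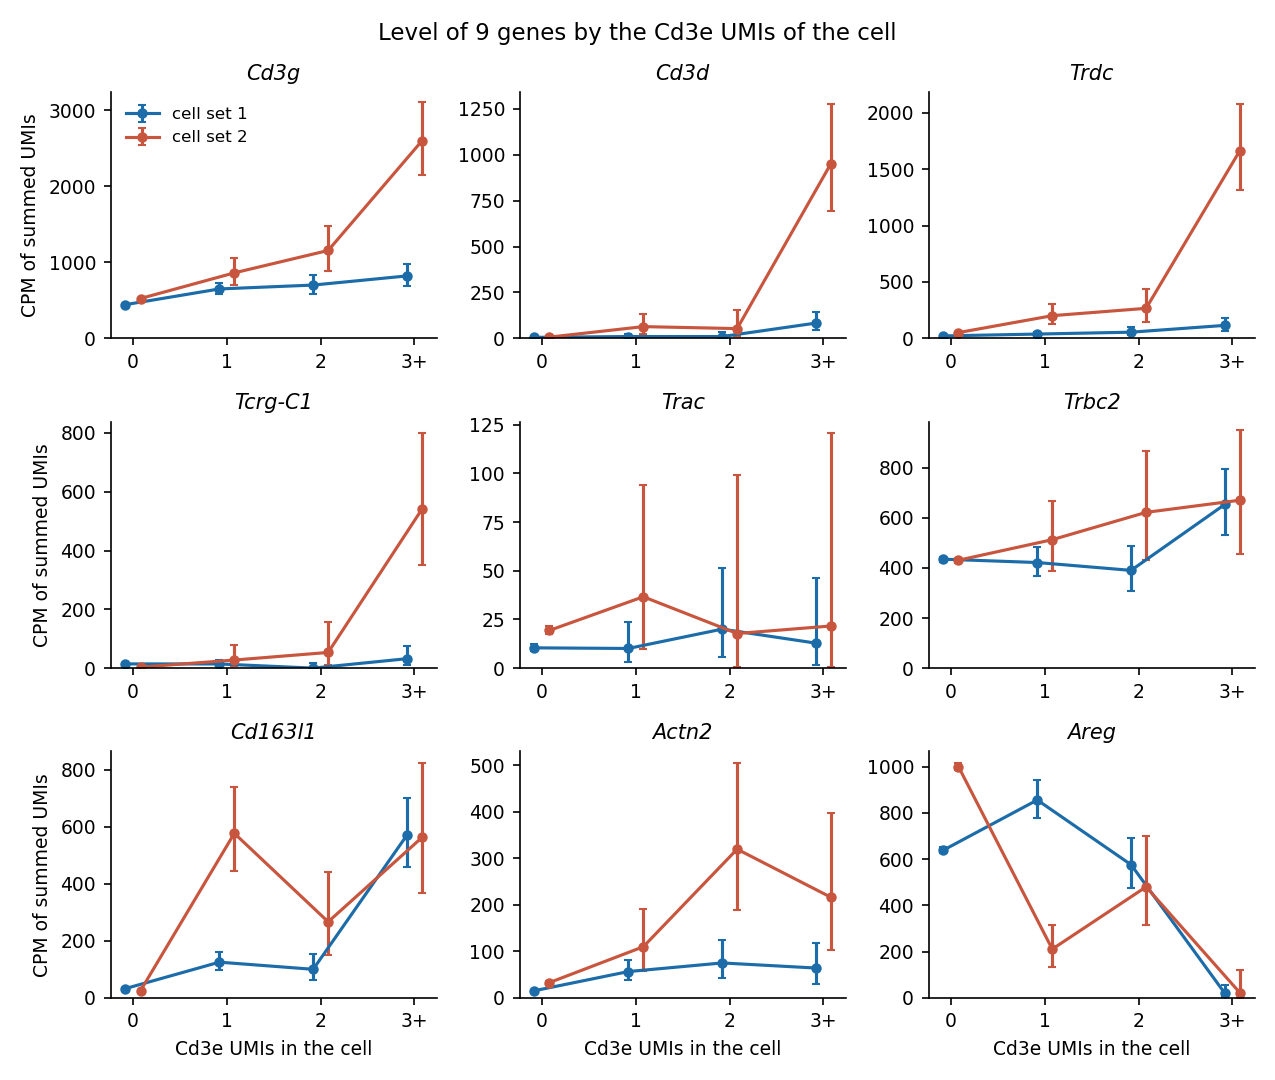
Level (CPM of summed UMIs, each panel with its own linear axis) of 9 genes in cells with 0, 1, 2 and at least 3 Cd3e UMIs in cell sets 1 and 2, with exact Poisson 95% intervals. Cd3g and Trdc climb with Cd3e in both sets, Trac stays between 10.1 and 36.6 CPM, and Areg is at 19.2 and 21.6 CPM in the cells with at least 3 UMIs.

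Cells with at least 3 Cd3e UMIs numbered 13 in set 1 and 10 in set 2. Trdc was present in 7 of these 13 cells and in 10 of the 10. Cd163l1 was present in 9 of the 13 and 6 of the 10, Cd3d in 2 and 6, and Tcrg-C1 in 1 and 4. The cell of set 2 with 20 Cd3e UMIs also held 40 UMIs of Cd3g, 17 of Trdc, 11 of Tcrg-C1, 8 of Trdv4 and 7 of Cd3d among 2895 UMIs. The cell with 12 Cd3e UMIs held 24 of Cd3g, 21 of Cd3d, 11 of Trdc, 8 of Tcrg-C1 and 5 of Trdv4 among 3376. Neither had a UMI of Trac or Cd163l1, and both carried Xcl1, a chemokine gene of cytotoxic lymphocytes, with 34 and 5 UMIs. A cell of set 2 with 4 Cd3e UMIs held 23 of Trdc, 15 of Trdv4, 11 of Cd3d and 10 of Cd163l1. The set thus held cells with delta chain and CD3 transcripts both with and without Cd163l1.

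Of the cells of set 1, the one with 6 Cd3e UMIs held 19 UMIs of Cd3g, 5 of Tcrg-C1, 3 of Cd3d, 3 of Cd163l1 and 1 of Trdc. Another, with 3 Cd3e UMIs, held 101 UMIs of Gzma and 25 of Gzmb, the genes of granzymes A and B, with 41 of Trbc2, 18 of Cd3g, 10 of Cd3d, 10 of Trdc and 6 of Cd163l1. Among the rest, 7 cells had from 5 to 16 UMIs of Cd163l1 and no Cd3d, and 4 had none of Cd3d, Trdc or Cd163l1.

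**Figure D3:**
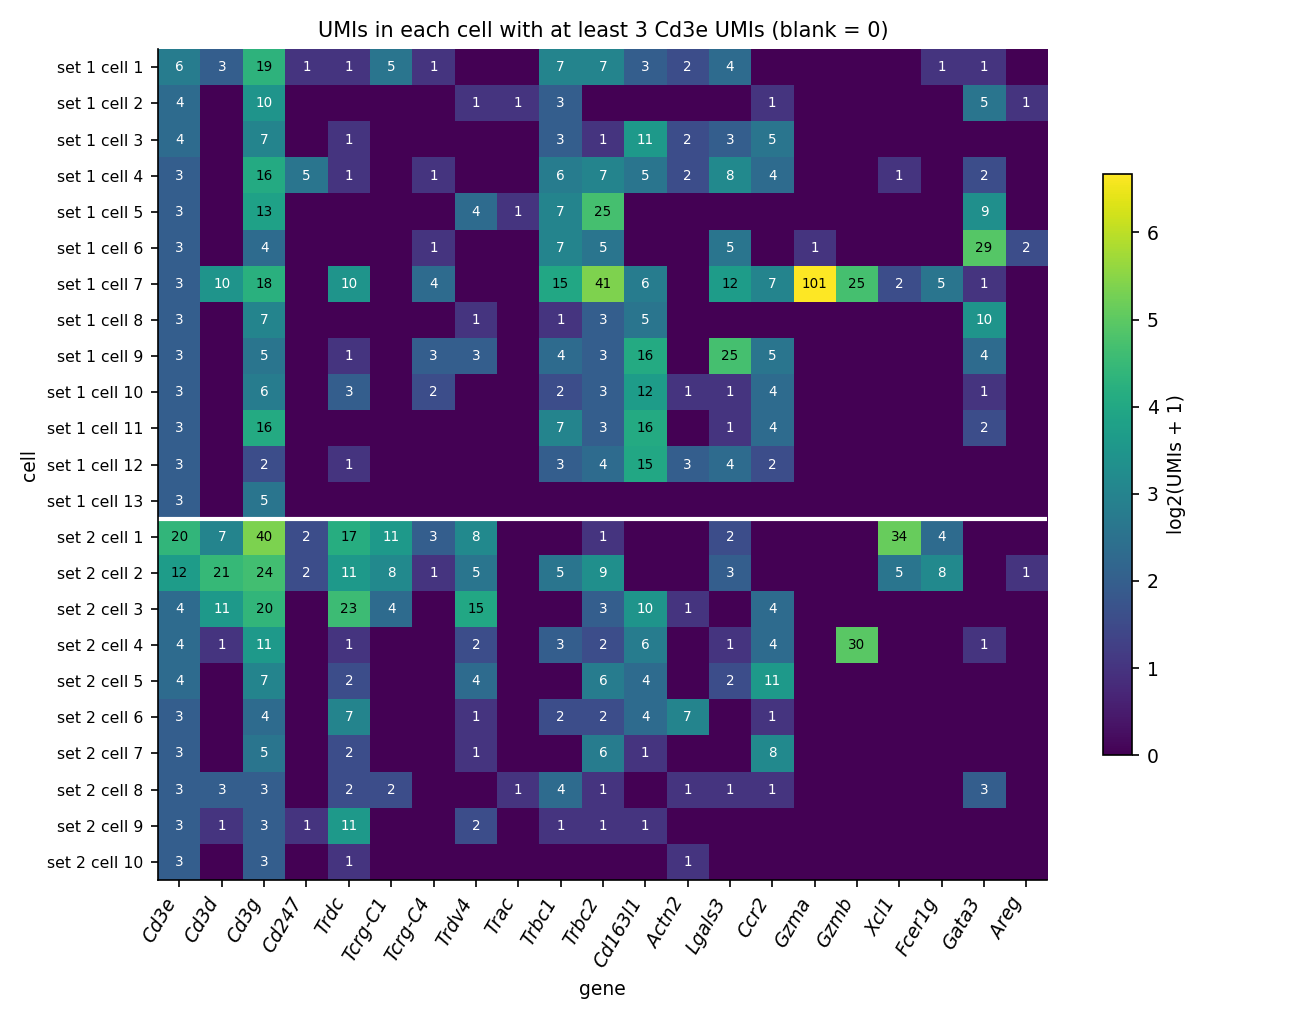
UMIs of 21 genes in each of the 23 cells with at least 3 Cd3e UMIs (13 of cell set 1 above the line, 10 of cell set 2 below), coloured on a log2(UMIs + 1) scale with the count printed. Trdc is present in all 10 cells of set 2, and the 2 cells with 20 and 12 Cd3e UMIs stand apart in Cd3g, Tcrg-C1 and Xcl1.

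A deeper cell is likelier to show any gene, so every cell was also thinned to 4108 UMIs, the lower quartile, and Cd3e was read again in the thinned counts. Too shallow for this were 63 cells in set 1, 3 of them Cd3e-positive, and 1174 in set 2, 22 of them Cd3e-positive. After thinning, 38 Cd3e-positive cells remained in set 1 (2.76%) and 18 in set 2 (0.771%). Trdc was then found in 28.9% of Cd3e-positive cells (15.4 to 45.9%) against 6.64% of Cd3e = 0 cells (5.37 to 8.11%) in set 1, and in 66.7% (41.0 to 86.7%) against 16.0% (14.6 to 17.6%) in set 2. Cd163l1 was found in 39.5% (24.0 to 56.6%) against 7.61% (6.25 to 9.16%) in set 1 and in 66.7% (41.0 to 86.7%) against 3.89% (3.14 to 4.76%) in set 2. For both genes the intervals of the groups did not overlap. Thinned further to 2054 UMIs, Trdc of set 1 was in 5.26% of Cd3e-positive cells (0.133 to 26.0%) against 3.91% of Cd3e = 0 cells, and the intervals overlapped.

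Cd3d at one depth was in 3 of 38 Cd3e-positive cells (7.89%, 1.66 to 21.4%) against 2.54% of Cd3e = 0 cells (1.76 to 3.53%) in set 1, and in 3 of 18 (16.7%, 3.58 to 41.4%) against 2.89% (2.25 to 3.66%) in set 2. The intervals of the shares overlapped, in set 2 by little. The CPM ratio of Cd3d at this depth was 5.57 (1.92 to 13.3) in set 1 and 21.4 (10.6 to 39.8) in set 2. Trac was in 2.63% (0.0666 to 13.8%) against 3.73% in set 1 and in 11.1% (1.38 to 34.7%) against 7.08% in set 2.

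**Figure D4:**
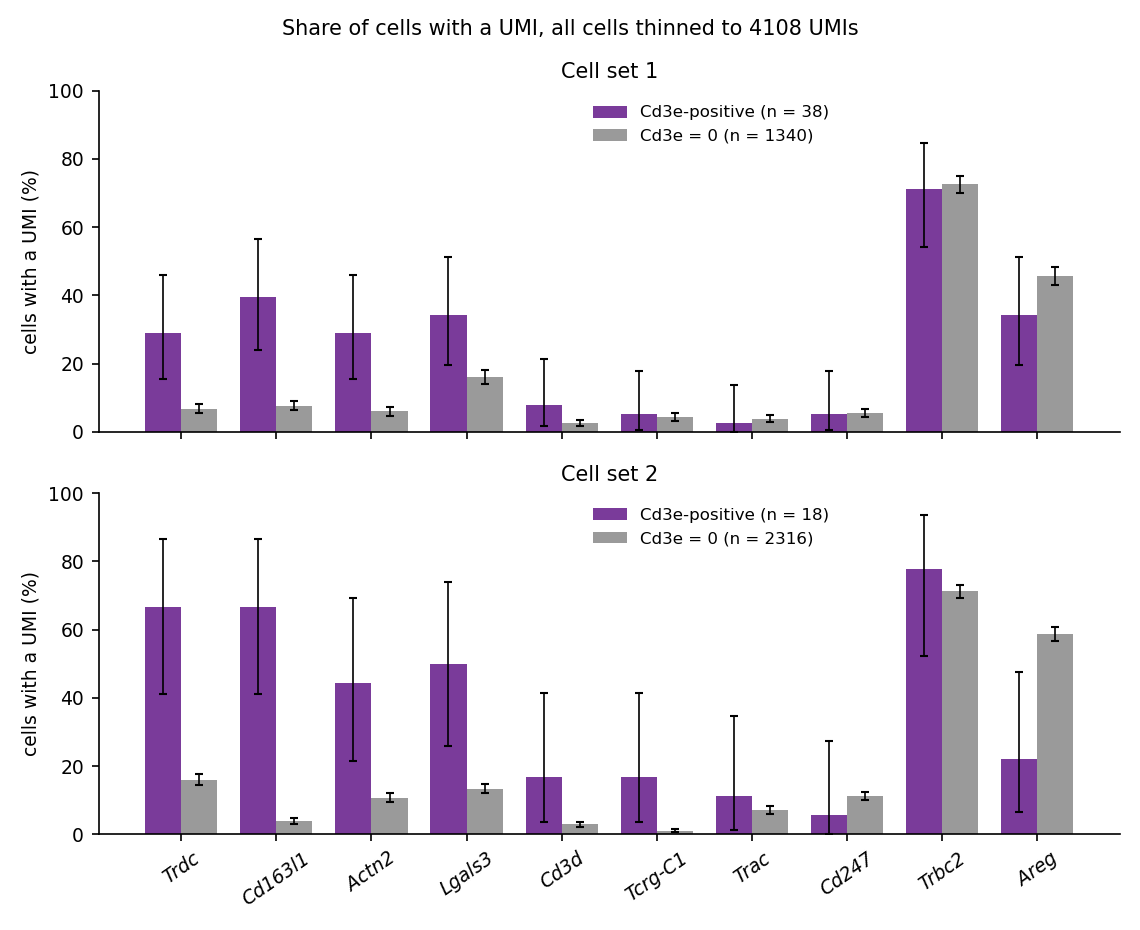
Share of cells with a UMI (%) of 10 genes after thinning to 4108 UMIs per cell, in Cd3e-positive cells (left bar, n = 38 and 18) and Cd3e = 0 cells (right bar, n = 1340 and 2316) of cell sets 1 and 2, with exact Clopper-Pearson 95% intervals. Trdc, Cd163l1, Actn2 and Lgals3 are apart in both sets, and Trac and Trbc2 overlap.

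Over all genes, 13 were at least 2-fold higher in Cd3e-positive cells of set 1 and 26 lower. In set 2, 121 were higher and 384 lower, of which 154 had a ratio whose interval lay below 1 and the rest had intervals that included 1. The genes higher in both sets were 6: Cd163l1, Actn2, Gzmb, Lgals3, Cd3d and Trdc. They were 46.2% of the genes higher in set 1 and 4.96% of those in set 2. Of the 13 genes higher in set 1, 9 had at least 100 UMIs in set 2 and could be counted there. Actn2, which encodes an actinin of muscle, stood at 62.2 against 15.3 CPM in set 1 and 189 against 32.8 CPM in set 2, with ratios of 4.06 (2.96 to 5.49) and 5.75 (4.07 to 7.93). Lgals3, the gene of galectin-3, stood at 189 against 77.2 CPM and 288 against 72.9 CPM, with ratios of 2.45 (2.06 to 2.89) and 3.95 (3.01 to 5.11). Gzmb was at 36.4 against 7.15 CPM in set 1 and 231 against 41.9 CPM in set 2, but 1 cell held 80.6% and 61.2% of its UMIs in the Cd3e-positive cells.

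Genes lower in both sets were 2. Nkx2-3, a homeobox gene, had 0 UMIs in the Cd3e-positive cells, against 14.7 and 16.2 CPM in Cd3e = 0 cells, with an interval of the ratio of 0 to 0.297 in set 1 and of 0 to 1.08, which includes 1, in set 2. Rgs16, a regulator of G protein signalling, stood at 2.35 against 16.8 CPM in set 1 and 4.72 against 56.1 CPM in set 2. They were 7.69% and 0.521% of the genes lower in each set. Of the 26 genes lower in set 1, 16 had at least 100 UMIs in set 2 and could be counted there.

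Other genes were among the largest or smallest ratios of one set. Among the smallest in set 1 were Tyrobp, at 4.70 against 56.4 CPM (0.0226 to 0.214), and Nrgn, at 1.17 against 25.2 CPM (0.00118 to 0.261). Among the smallest in set 2 were Cd81, at 14.2 against 111 CPM (0.0263 to 0.374), and Akap12, with 0 UMIs against 59.3 CPM (0 to 0.294). The genes that follow had large ratios. In set 1, Gzma reached 156 against 4.72 CPM, with 3 of 73 Cd3e-positive cells carrying it and 1 cell holding 75.9% of its UMIs. Adamts9, a secreted protease gene, was at 32.9 against 8.30 CPM in 16 cells, and Tln2, a cytoskeletal talin gene, at 45.8 against 14.5 CPM in 24 cells. In set 2, Ccr2, a chemokine receptor, reached 557 against 96.4 CPM, a ratio of 5.78 (4.75 to 6.97), and was in 21 of 44 cells, while in set 1 it stood at 170 against 121 CPM (1.18 to 1.67). Selenop, a selenoprotein gene, was at 104 against 16.7 CPM in set 2 (3.83 to 9.58) and at 44.6 against 37.99 CPM in set 1 (0.823 to 1.63). Zbtb16, which encodes PLZF, a factor of innate-like T cells and ILC precursors, was higher in both sets, at 81.0 against 47.3 CPM in set 1 (1.32 to 2.19) and 104 against 25.2 CPM in set 2 (2.56 to 6.32).

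ILC2 and ILC3 genes were measured in the same cells. Gata3, the transcription factor of ILC2s, stood at 557, 786 and 410 CPM in cells of set 1 with 1, 2 and at least 3 Cd3e UMIs, beside 577 CPM in Cd3e = 0 cells, and at 504, 746 and 86.5 CPM in set 2, beside 595 CPM. Areg, the amphiregulin gene of ILC2s, stood at 855, 575 and 19.2 CPM in these cells of set 1, beside 639 CPM in Cd3e = 0 cells, and at 211, 480 and 21.6 CPM in set 2, beside 1000 CPM. Cells with at least 3 Cd3e UMIs thus held little Areg in both sets. Over all Cd3e-positive cells of set 2, Il5 stood at 61.4 against 243 CPM (0.135 to 0.433), Calca, the gene of the neuropeptide CGRP, at 47.2 against 157 CPM (0.144 to 0.555) and Csf2 at 33.1 against 109 CPM (0.121 to 0.624). The Calca UMIs lay in 2 of these cells and those of Csf2 in 1. The summed ILC2 list stood at 4013 against 4148 CPM in set 1 (ratio 0.967, 0.934 to 1.00), and at 3094 against 4365 CPM in set 2, a ratio of 0.709 (0.655 to 0.765). The summed ILC3 list stood at 274 against 374 CPM in set 1 (ratio 0.731, 0.639 to 0.834), and at 704 against 511 CPM in set 2, a ratio of 1.38 (1.16 to 1.62). Of its 11 genes, 2 had an interval above 1 and 2 below it in set 1, and 4 lay above and 1 below in set 2. Of the 12 ILC2 genes, 0 lay above and 4 below in set 1, and 0 above and 5 below in set 2. Over all genes with at least 20 UMIs, 4.77% lay above 1 and 4.56% below it in set 1, and 4.63% and 3.25% in set 2. Il22, a cytokine gene of ILC3s, was at 49.3 against 172 CPM in set 1 (0.206 to 0.389), where 1 cell held 88.1% of the Il22 of the Cd3e-positive cells.

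By summed UMIs, cycling genes were lower in Cd3e-positive cells of set 2. At least 3 UMIs of 8 cycling genes were found in 47.9% against 45.5% of cells in set 1 and in 2 of 44 (4.55%) against 8.49% in set 2. The summed cycling genes stood at 1460 against 1481 CPM in set 1 and at 75.6 against 434 CPM in set 2, a ratio of 0.174 (0.0994 to 0.283). That interval is of UMIs and not of cells, and the share of cells in set 2 rested on 2 cells. Markers of other cell types were summed in the same way, and their part in the results was not tested. The summed macrophage markers stood at 5.87 against 4.09 CPM and 4.72 against 3.14 CPM, B cell markers at 17.6 against 12.8 CPM and 18.9 against 10.8 CPM, and keratinocyte markers at 153 against 118 CPM (1.07 to 1.54) and 9.45 against 15.5 CPM. Dendritic and Langerhans cell markers stood at 72.8 against 111 CPM and 23.6 against 126 CPM, mast cell markers at 167 against 192 CPM and 75.6 against 161 CPM, and fibroblast markers at 57.5 against 72.4 CPM and 4.72 against 3.48 CPM. The NK cell list stood at 159 against 7.85 CPM in set 1 (ratio 15.7 to 26.0), where Gzma gave 133 of its 135 UMIs, and at 9.45 against 4.43 CPM in set 2. The cytotoxic list stood at 304 against 324 CPM in set 1 (0.824 to 1.06) and at 1351 against 682 CPM in set 2 (1.76 to 2.23). In set 2, Xcl1 gave 51 and Gzmb 49 of its 286 UMIs, with 66.7% and 61.2% of them in 1 cell. Haemoglobin genes stood at 45.8 against 132 CPM in set 1 and at 11379 against 77.5 CPM in set 2, where 1 Cd3e-positive cell held 2408 of the 2409 UMIs among its 6043. Without that cell, the ratios of Cd3d, Trdc and Trac stayed within their intervals.

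Clusters built without CD3 and antigen receptor genes placed the Cd3e-positive cells in many clusters. At resolution 0.5, cluster 0 held 35 and cluster 3 held 13 of the 73 Cd3e-positive cells of set 1, and cluster 3 held 21 of the 44 of set 2. Among clusters with at least 20 cells of a set, the share in set 1 was largest in cluster 3, at 13 of 51 cells (25.5%, 14.3 to 39.6%), whereas the same cluster held 1381 cells of set 2 with 1.52% (0.944 to 2.32%). At the finer resolution of 1.0, the share among such clusters was largest in cluster 4 in both sets, at 12 of 51 cells (23.5%, 12.8 to 37.5%) in set 1 and 9 of 51 (17.6%, 8.4 to 30.9%) in set 2. Actn2, Ccr2, Selenop, Il23r, Cd163l1, Il17a, Mcrip2, Il17f and Igf1r were among the genes that led cluster 4, and the cluster was given no name. Cluster 5, led by Tyrobp, Fcer1g and Il22, held 1 Cd3e-positive cell of 151 in set 1 (0.662%, 0.0168 to 3.63%) and 3 of 38 in set 2 (7.89%, 1.66 to 21.4%), among them the cells with 20 and 12 Cd3e UMIs.

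The clusters differed in depth, and the part of depth in these shares was not tested. In set 1, clusters 4, 1, 0 and 3 had medians of 6812, 8018, 11520 and 16255 UMIs. Their shares were 23.5%, 5.46%, 5.16% and 3.79%, falling as the median rose. Cluster 5 of set 1 was outside that order, at 8190 UMIs and 0.662%. In set 2, cluster 3, led by histone and cycling genes, had a median of 9446 UMIs over 119 cells and no Cd3e-positive cell, which an exact interval bounds at 3.05%. Cluster 11 of set 2, led by keratin-associated protein genes, had 0 Cd3e-positive cells among 58, with an upper bound of 6.16%. Its median was 760 UMIs, so at this depth it does not show how much Cd3e free RNA in the droplets adds, and that part was not tested.

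**Figure D5:**
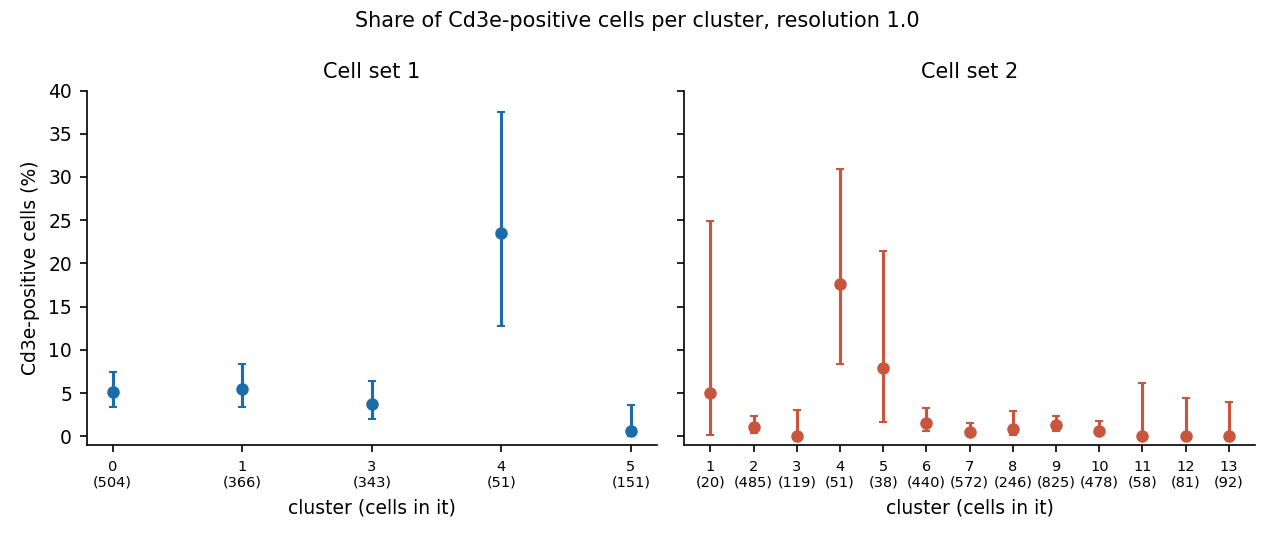
Share of Cd3e-positive cells (%) in each cluster with at least 20 cells of a set, at resolution 1.0, for cell sets 1 and 2, with exact Clopper-Pearson 95% intervals and the number of cells below each cluster. Of the clusters drawn, cluster 4 has the largest share in both sets, at 23.5% and 17.6%.

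Most Cd3e-positive cells lay outside cluster 4, and there the differences were still measured. Outside it, Trdc stood at 47.6 against 21.0 CPM in set 1 (ratio 2.27, 1.55 to 3.22), and at 545 against 50.1 CPM in set 2, a ratio of 10.9 (8.70 to 13.5). Cd163l1 stood at 159 against 30.5 CPM in set 1 (ratio 5.21) and 388 against 23.8 CPM in set 2 (ratio 16.3). Inside cluster 4, with 12 and 9 Cd3e-positive cells against 39 and 42 Cd3e = 0 cells, Cd163l1 stood at 463 against 142 CPM in set 1 (2.12 to 5.06) and 943 against 124 CPM in set 2 (4.42 to 13.3). Trdc stood there at 112 against 69.2 CPM in set 1 (0.732 to 3.44) and 510 against 171 CPM in set 2 (1.62 to 5.35). Ccr2 and Actn2, leading genes of that cluster, had ratios inside it whose intervals included 1 in both sets, at 0.840 and 0.933 in set 1 and 0.948 and 1.48 in set 2.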

How the data were processed

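UMI counts of 18786 gene symbols in 5246 cells were used as deposited, and their whole-number values are those of unscaled counts. The submitters' processing notes name Cell Ranger 3.1.0, the build mm10 and Seurat 4.1.0. No settings of either tool are given in the sources used here. Cells with at most 10% mitochondrial UMIs were kept and split by Cd3e within each cell set. UMIs were summed over cells as CPM with exact Poisson intervals, ratios have the exact binomial interval and shares the Clopper-Pearson interval, all at 95%. Genes counted as apart had at least 100 UMIs in the set and a ratio of CPM + 10 of at least 2-fold. Clusters came from scanpy 1.11.5 (10000 per cell, log1p, 2000 variable genes, 30 components, 15 neighbours, Leiden resolution 0.5), with edgeR 4.0.16 for TMM factors. Ratios were tested on simulated counts drawn as independent UMIs, which is what the intervals assume. That test cannot cover UMIs gathered in single cells. Named genes were members of the receptor, signalling, co-receptor and gamma delta lists, up to 4 of other lists by size of ratio, the 10 largest and 10 smallest ratios of a set and those 2-fold apart in both. Outside the lists, ribosomal, mitochondrial, haemoglobin and sex-linked marker genes and models without a name were counted only. Gata3, Areg by Cd3e count, and single cells were named after their values were seen. The cells and gene lists were chosen with earlier results of these data known.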

Additional observations from a re-analysis of the deposited data

Results flagged for a closer look

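The 2 cell sets were not matched to the study's groups, and no difference between them was tested. Each value here is the log2 ratio of CPM + 10, Cd3e-positive over Cd3e = 0 cells. The genes below were at least 2-fold apart in opposite directions, with both intervals clear of 1. Xcl1 was at 2.22 in set 2 and -2.09 in set 1, and Fcer1g, an adaptor of NK cells and type 3 lymphocytes, at 1.10 and -2.36. In set 2 the cells with 20 and 12 Cd3e UMIs held 34 and 5 of the Xcl1 UMIs and 4 and 8 of the Fcer1g UMIs. Without these 2 cells, set 2 gave 0.35 for Xcl1 and -0.29 for Fcer1g. Hbb-bs was at 6.97 in set 2 and -1.80 in set 1, and 1 cell held 99.9% of its UMIs in the Cd3e-positive cells of set 2. Il17f was at -1.32 in set 2, with 1 UMI, and 1.25 in set 1, with 30 UMIs in 6 cells. Ccl1, a chemokine gene, was at -1.95 in set 2, with 0 UMIs, and 1.18 in set 1, where 1 cell held 78.5% of the UMIs. Rasl11a was at 1.28 in set 2, with 10 UMIs in 5 cells, and -1.49 in set 1, with 1 UMI in set 1.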

How the results depend on the processing

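No paired analysis was possible because each cell set is 1 library at most and no result came from a test; for the same reason no replicate could be left out. Values below are CPM ratios unless named, and the cause of each move was not tested. Over the alternatives run, 173 values of the shares, medians, gene counts and ratios of Cd3d, Trdc, Trac and the summed receptor genes stayed within the main interval, or within 1.5 times for a count, and 65 moved. For single named genes, 1632 log2 ratios stayed, 246 moved and 7 changed sign. A change of sign was counted only for genes at least 2-fold apart in the main result. Sign changes of smaller ratios are among those that stayed or moved. Alternatives for mitochondrial limits of 5% and 20%, Scrublet calls, the haemoglobin-rich cells, depth weighting and TMM factors moved no share, median, gene count or ratio of those genes. Trac, whose interval includes 1, moved under none.

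Requiring at least 2 Cd3e UMIs gave shares of 2.15% in set 1 and 0.684% in set 2. Ratios were then 7.34 and 65.9 for Cd3d, 3.73 and 17.5 for Trdc, and 1.48 and 3.18 for the summed receptor genes. Genes at least 2-fold higher numbered 39 and 340 and lower 122 and 944. In cells with exactly 1 Cd3e UMI, chosen after seeing the data, Cd3d gave 1.76 in set 1 (0.557 to 4.25) and 9.21 in set 2, Trdc 1.76 and 3.92, and the summed receptor genes 1.21 and 1.42. Genes higher numbered 24 and 274 and lower 53 and 918, and 0 receptor genes of set 1 were 2-fold higher. Thinning to one depth gave shares of 2.76% and 0.771%, Trdc 4.70 in set 1, Cd3d 21.4 in set 2 and summed receptor genes 1.46 and 1.79, with 103 and 580 genes higher and 494 and 1312 lower. Thinning to 2054 UMIs found Cd3d in 0% of Cd3e-positive cells of set 1, Trdc in 5.26% in set 1 and 40% in set 2, and Cd163l1 in 33.3% in set 2.

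Without the cell holding most UMIs, Cd3d gave 2.08 in set 1 (0.966 to 4.01) and 22.8 in set 2, and the summed receptor genes 1.25 and 2.05. Without the 2 cells of set 2 that held at least 10 Cd3e UMIs, also chosen after seeing the data, Cd3d gave 18.2, Trdc 8.14 and the summed receptor genes 1.82. Without cells holding 3 or more cycling UMIs, set 1 gave a median of 9084.5 UMIs, Trdc 4.27, summed receptor genes 1.46, and 42 genes higher and 118 lower.

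With CPM + 1, genes higher numbered 50 and 426 and lower 225 and 1205. With CPM + 20 they numbered 5 and 50 higher and 11 and 95 lower, with 0 receptor genes 2-fold higher in set 1. With at least 300 UMIs, 5 and 66 were higher and 16 and 235 lower, 1 of them a receptor gene of set 1. With no minimum, 183 were higher in set 2. At resolution 0.3 the largest share of a cluster with at least 20 cells in set 1 was 6.86%.

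On the log2 scale of CPM + 10, 1 gene at least 2-fold apart changed sign in set 1, Ccl1 without cycling cells (-1.84). In set 2 such genes were Fcer1g, Xcl1 and Trat1. Fcer1g changed after thinning (-2.08), with exactly 1 Cd3e UMI (-2.07) and without the 2 cells (-0.29). Xcl1 changed after thinning (-2.55) and with 1 UMI (-2.42), and Trat1 with 1 UMI (-0.66). Counts of 13 and 8 UMIs or fewer limit Trat1, Cd2 and Trac in set 2.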
